A study of Mus musculus with 4 samples.

Results

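The cytosolic ribosomal protein genes were examined in CD8αβ+ T cells of the small intestinal epithelium and of the spleen. Members were the genes whose name on the array is Rpl, Rps or Rplp followed by a number and at most one of the letters a, l or x, with control spots left out. The rule found 79 genes of the 27376 gene names on the array, measured by 135 probes. They were 43 proteins of the large (60S) subunit, 30 of the small (40S) subunit, the 3 P stalk proteins and 3 variant genes, which are second gene copies with a protein of their own. Where a gene had several probes, the probe with the highest mean signal over the 4 arrays stood for it.

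Messenger RNA was measured on 4 one-colour Agilent arrays, 2 of CD8αβ+ intraepithelial lymphocytes (IELs) and 2 of CD8αβ+ splenocytes (SPLs). Both groups came from wild-type male mice that the labels give as 8 to 12 weeks old, with no treatment, on a C57BL/6 background per the methods. Cells of both groups were sorted as CD45+CD3+CD8β+CD8α+TCRβ+, and each sample was pooled from several mice. IEL replicate 1 and SPL replicate 2 shared slide 1, and IEL replicate 2 and SPL replicate 1 shared slide 2.

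The ribosome joins a small subunit, which reads the mRNA, to a large subunit, which forms the peptide bond. Its proteins are needed in near-equal amounts, and their genes are transcribed at high levels in almost every cell. Many of the mRNAs begin with a C followed by an unbroken run of pyrimidines, called the 5′ terminal oligopyrimidine tract, through which mTOR signalling controls their translation. Under such control, mRNA abundance and protein output need not move together. T cells raise ribosome production when they are activated.

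The sequences around the annotated start were searched for a motif that such a tract would contain. RefSeq starts (GRCm38.p6) were matched for 59 of the 79 members. The search covered only the strand that reads as the mRNA does. The motif was a C followed by at least 4 bases of C or T, with the C within 5 bases of the annotated start. It was present in 27 of the 59 matched members (45.8%) and in 18.5% of the 27025 genes in the same table. The 10 matched genes among those with the 6 lowest and 6 highest differences described below are shown. Each window runs from 15 bases before to 15 bases after the start, 5′ to 3′, with the motif in capitals.
Rpl31 (chr1:39367836-39367865, + strand): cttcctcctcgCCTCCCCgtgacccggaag
Rpl10a (chr17:28328456-28328485, + strand): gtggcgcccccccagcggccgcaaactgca
Rpl6 (chr5:121204486-121204515, + strand): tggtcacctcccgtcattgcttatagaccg
Rpl36a (chrX:134585639-134585668, + strand): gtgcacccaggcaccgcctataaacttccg
Rpl28 (chr7:4792950-4792979, + strand): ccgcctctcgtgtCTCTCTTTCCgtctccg
Rps23 (chr13:90923107-90923136, + strand): gccttcggctgggcggggCTTCCCgcaatg
Rpl37a (chr1:72711245-72711274, + strand): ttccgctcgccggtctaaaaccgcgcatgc
Rps27 (chr3:90213634-90213663, - strand): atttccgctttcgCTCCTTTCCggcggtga
Rps12 (chr10:23787195-23787224, - strand): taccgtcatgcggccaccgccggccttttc
Rplp0 (chr5:115559452-115559481, + strand): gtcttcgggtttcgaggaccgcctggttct
The motif occurred at both ends of the order: Rpl31 and Rpl28 hold it, and so do Rps23 and Rps27. The median log2 difference between IELs and SPLs was -0.17 for the 27 members with the motif and -0.18 for the 32 without it. A run that begins away from the start used is no such tract, so these medians do not compare mRNAs with and without one. Absence of the letters from this window says nothing of the tract at the start sites these cells use.

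The labelled cell type was checked against marker genes before the members were compared. Cd8a and Cd8b1, the chains of the CD8αβ co-receptor, were well above background on every array, and the summed level of the 9 CD8 T cell markers on the array, of 12 listed, lay between 666 and 732 units on the 4 arrays, where 1 unit is an array's 75th percentile of signal. The 20 small intestinal epithelium markers summed to 55.8 units on IEL replicate 1, 8.28 on IEL replicate 2, 3.35 on SPL replicate 1 and 0.854 on SPL replicate 2. Of 10 B cell markers listed, the 9 on the array summed to 6.46 units on IEL replicate 1 and to 84.3, 105 and 92.9 on the other arrays in that order, the 10 erythroid markers of 11 listed to 19.8 against 83.9, 104 and 119, and the 11 myeloid markers of 12 listed to 50.7 against 74.6, 89.5 and 91.5. On IEL replicate 1 most of these last sums was 1 gene each, Car2 and Lyz2. Without Car2 the erythroid sum was 1.79 against 76.6, 101 and 117, and without Lyz2 the myeloid sum was 3.36 against 46.6, 57.1 and 54.5. Ms4a1, the B cell antigen CD20, had a signal of 4.40 on IEL replicate 1 and between 2101 and 3197 on the others. IEL replicate 2 therefore stood nearer to the SPL arrays than to IEL replicate 1: the interquartile range of its log2 difference over the 27936 tested probes was 0.34 from SPL replicate 1 and 0.93 from IEL replicate 1. The 75th percentile of signal, which sets the scale, was 312 and 435 on the IEL arrays and 479 and 605 on the SPL arrays. The part these markers play in the values below was not tested.

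No ribosomal protein gene differed between CD8αβ+ IELs and CD8αβ+ SPLs past an adjusted p of 0.05. All 79 members were tested, and 0 of them passed limma's test with Benjamini-Hochberg adjustment over 27936 probes, where 0% of all probes passed. At an unadjusted p under 0.05 the count was also 0 of 79, against 5.74% of all tested probes. That count was not the same under every setting: it was 14 without IEL replicate 2 (36.3% of all probes), 2 without IEL replicate 1 (7.11%), 8 with normexp fitted without low spots (9.18%), 4 with an intensity trend in the variances (5.49%), 2 with median scaling (5.2%) and 1 with spike-in scaling (9.59%). The median log2 difference, IEL minus SPL, was -0.18 over the members and -0.0007 over all tested probes. The difference was above 0 for 21 members and below 0 for 58, with 0 above 0 when arrays were scaled to E1A spike-ins and 61 above 0 after normexp background correction. Its interquartile range was 0.40 over members and 0.65 over all tested probes. The smallest adjusted p among members was 0.634 and the smallest unadjusted one 0.0612, for Rps19. With 2 arrays a group, the 95% confidence intervals reached between 0.60 and 1.20 log2 units to each side of a member's difference. They are not adjusted for the number of probes. Changes within that range were not detectable, and larger ones could also fail the adjusted test. The epithelial marker Krt8 had a difference of 4.42 and an adjusted p of 0.634 from limma. In sorted bulk samples, fewer cells of a type and less RNA per cell cannot be told apart.

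**Figure D1:**
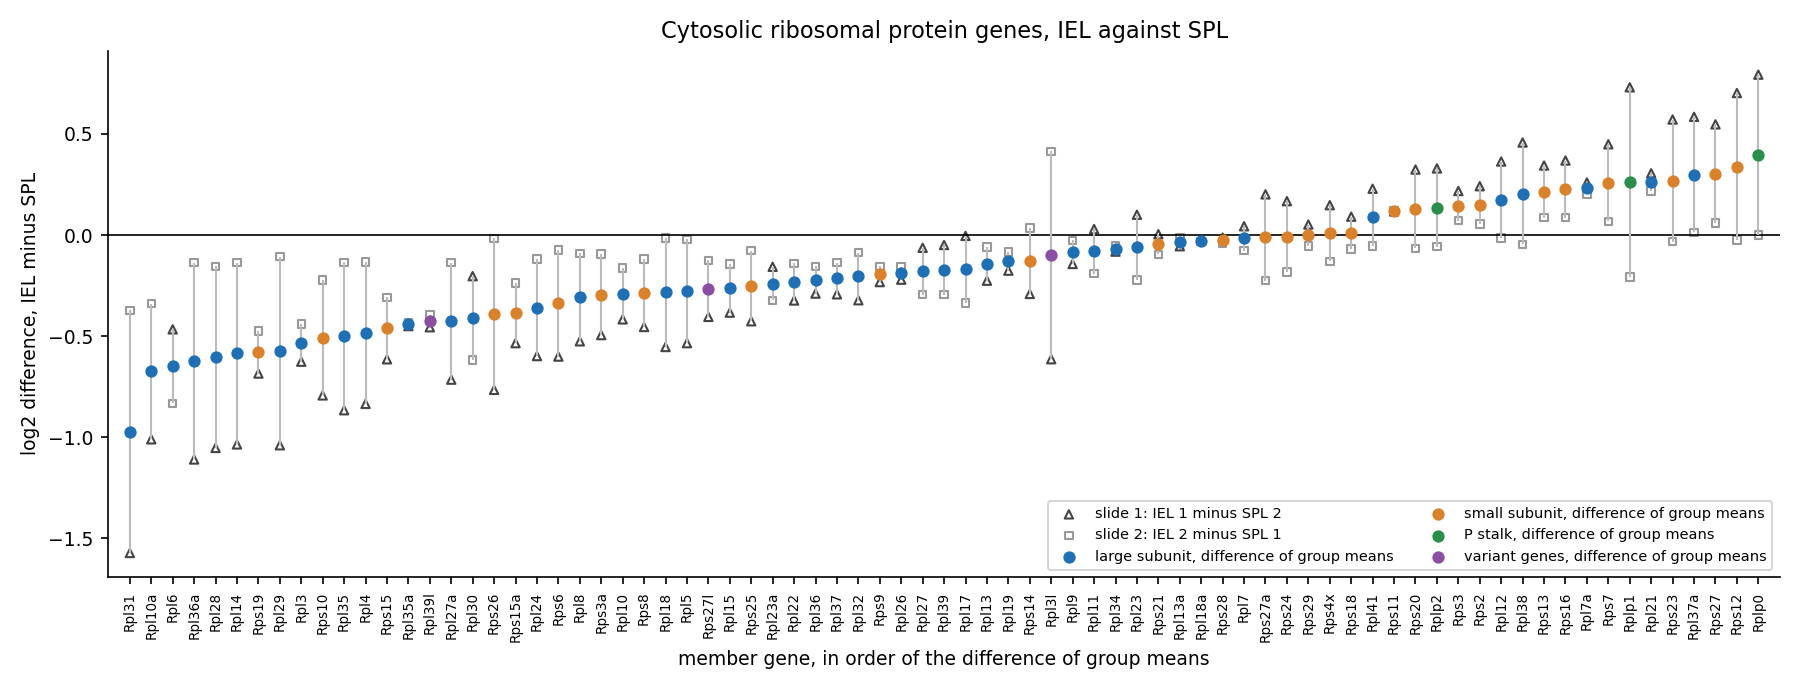
Log2 difference, IEL minus SPL, of 77 of the 79 ribosomal protein genes in order of the difference of group means (filled circles, coloured by subunit), with the difference within slide 1 (open triangles) and within slide 2 (open squares). The circles run from -0.97 for Rpl31 to 0.40 for Rplp0, and most squares lie nearer to 0 than the triangles.

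The members with the lowest differences were mostly large subunit proteins, and 5 of them are described. Levels are given as log2 signal above the array's 75th percentile, in the order IEL replicates 1 and 2, then SPL replicates 1 and 2. Rpl31, a protein at the rim of the peptide exit tunnel, had levels of 1.90 and 2.85 against 3.22 and 3.47. Both IEL arrays lay below both SPL arrays, and the difference of -0.97 ± 0.40 (SE, n = 2 against 2) corresponded to a level 1.96 times higher in SPLs, with an adjusted p of 0.634 from limma. Rpl10a, a protein of the L1 stalk, had levels of 5.79 and 6.31 against 6.65 and 6.80. Its difference was -0.67 ± 0.29 (SE), again with no overlap. Rpl36a and Rpl28, both of the large subunit, showed the same order of arrays. Rpl36a had levels of 6.92 and 7.83 against 7.96 and 8.03, and Rpl28 had 6.80 and 7.61 against 7.76 and 7.85. In each, IEL replicate 1 was the low array and IEL replicate 2 lay close to the SPLs. Rpl6 was the exception, with levels of 7.27 and 6.31 against 7.14 and 7.74: here IEL replicate 2 was the low array, and the groups overlapped.

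At the other end of the order stood Rplp0, Rps12, Rps27, Rpl37a, Rps23 and Rpl21. Rplp0, the protein that anchors the P stalk, had levels of 9.29 and 8.54 against 8.54 and 8.50. Only IEL replicate 1 stood above the SPLs by more than 0.1, and the difference was 0.40 ± 0.34 (SE, n = 2 against 2) with an adjusted p of 0.670 from limma. Rps12, a small subunit protein, had levels of 9.29 and 8.59 against 8.62 and 8.58. The pattern was that of Rplp0, with 1 high array of IELs. Rps27 had levels of 9.43 and 9.06 against 9.005 and 8.88, Rpl37a 9.70 and 9.25 against 9.24 and 9.12, and Rps23 9.90 and 9.39 against 9.43 and 9.33. The first and second of these did not overlap between groups, and Rps23 did. The deposited annotation places the Rps27 probe at chr9:114891515-114891574 (mm9), whereas RefSeq places the Rps27 gene on chromosome 3, so which gene copy it measured is uncertain. Rpl21 had levels of 2.90 and 3.51 against 3.30 and 2.60, with each group spread over more than its difference of 0.26. All 6 of these differences turned below 0 when arrays were scaled to the E1A spike-ins, as those of 21 members did, and Rps23 also did so in the authors' processed values. At the reported scaling, other tested probes lay below 0 for Rpl21 (-0.51), Rps12 (-0.05) and Rplp0 (-0.47 and -0.62). Rps27, Rpl37a and Rps23 had 1 probe each.

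The arrays of each slide gave differences of unequal size. Within slide 1, IEL replicate 1 minus SPL replicate 2, the median over members was -0.22, and 51 of 79 lay below 0. Within slide 2, IEL replicate 2 minus SPL replicate 1, the median was -0.11, and 67 of 79 lay below 0. The interquartile range over members was 0.70 on slide 1 and 0.17 on slide 2, against 1.02 and 0.34 over all tested probes. On slide 1, 6 members were at least 2-fold lower in IELs (Rpl31, Rpl36a, Rpl28, Rpl29, Rpl14 and Rpl10a), all of the large subunit, where 13.7% of all tested probes were. None was at least 2-fold higher there, where 11.7% of all probes were. On slide 2, 0 members were at least 2-fold lower or higher, where 0.73% and 2.47% of all probes were. No member was thus 2-fold apart on both slides. Each gene was counted by its brightest probe, and the other Rpl36a probes gave -0.95 and -0.44 on slide 1.

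**Figure D2:**
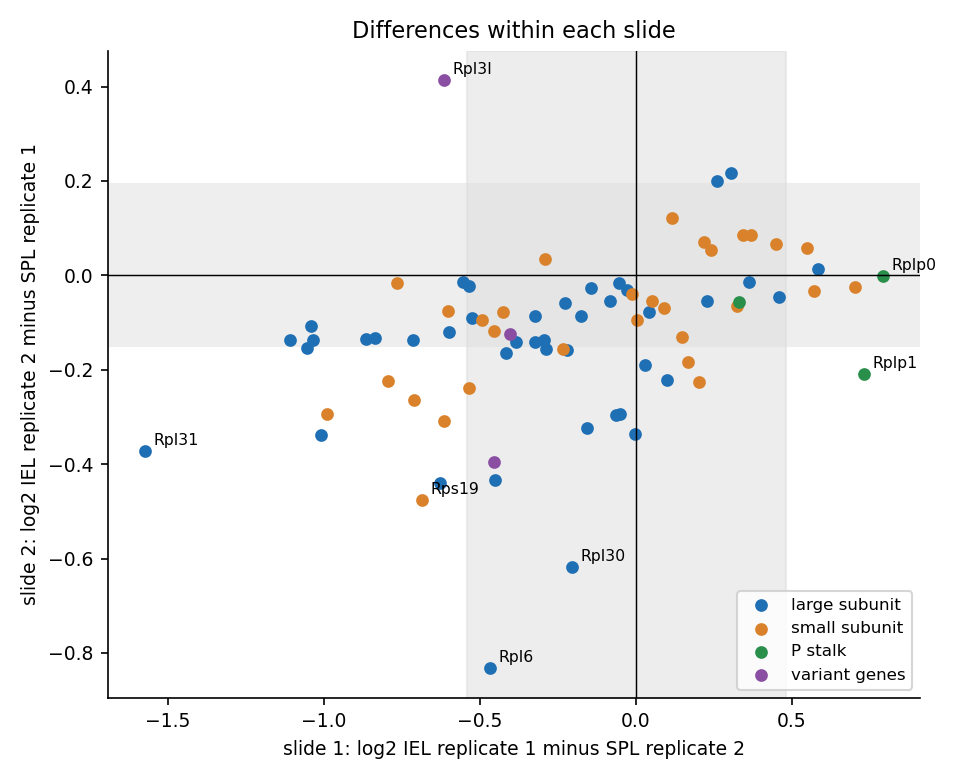
Log2 difference within slide 1 (horizontal) against that within slide 2 (vertical) for the 79 members, coloured by subunit, with grey bands for the interquartile range of all tested probes on each slide. Slide 1 spreads the members from -1.57 to 0.79, and slide 2 from -0.83 to 0.41.

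Groups were also compared array by array. Both IEL arrays lay below both SPL arrays for 40 members, against 24.5% of all tested probes, and above them for 8 members, against 24.4%. Those 40 were 26 of the large subunit, 12 of the small subunit and 2 variant genes, and the 8 were 6 of the small subunit and 2 of the large. These counts moved with the scaling of the arrays. They were 67 lower and 0 higher with the spike-ins, and 1 lower and 21 higher after normexp background correction. The median of all tested probes moved as well, to -0.50 with the spike-ins and -0.38 with normexp. The share of all probes with groups apart under these settings is not given here. Arrays of 1 group also differed from each other. The interquartile range of the members' log2 difference was 0.60 between the IEL arrays and 0.16 between the SPL arrays, beside 0.40 for the group difference. Over all tested probes these ranges were 0.93, 0.45 and 0.65. For 48 of the 79 members the IEL arrays differed from each other by more than the groups did.

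Leaving out 1 array at a time kept the members' median below 0, between -0.25 and -0.10. The members above 0, 21 with all arrays, numbered 13 without IEL replicate 1, 30 without IEL replicate 2, 21 without SPL replicate 1 and 26 without SPL replicate 2. Those with both groups apart numbered 9 to 26 higher and 42 to 61 lower, with 61 lower without IEL replicate 1, and 26 and 14 higher without IEL replicate 2 and SPL replicate 1. With 1 array alone in a group the groups separate more easily, so these counts do not compare with those of all arrays. The share of all tested probes in these fits is not given here. Without IEL replicate 2, 2 members passed the test, Rpl31 (-1.45 ± 0.26, SE, adjusted p = 0.0283 by limma) and Rpl36a (-1.08 ± 0.24, SE, adjusted p = 0.0456), both lower in IELs. In the same fit 10.3% of all tested probes passed as lower and 9.1% as higher, and the single IEL array was taken to vary as the SPL arrays do. None passed without any of the other 3 arrays. These fits counted a gene by its brightest probe. With all arrays, the other tested probes gave -0.72 for Rpl31, and -0.54 and -0.33 for Rpl36a.

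The members were next described by subunit. Of the 43 large subunit members, 37 had a difference below 0 (11 after normexp), with a median of -0.22 and a range from -0.97 to 0.30. Of the 30 small subunit members, 18 lay below 0 (30 with the spike-ins, 5 after normexp), with a median of -0.02 and a highest value of 0.34. Slide 1 gave medians of -0.29 for the large and 0.03 for the small subunit, and slide 2 gave -0.14 and -0.07. The difference between the subunits was not tested. Its size varied with the scaling: the medians were -0.23 and -0.15 with quantile normalization, and -0.33 and -0.24 in the authors' values. Relative to the median of all tested probes, the large subunit stood 0.19 to 0.43 log2 units lower, and the small subunit 0.02 to 0.27, under every scaling but normexp fitted on all spots, where they stood 0.63 and 0.79 higher.

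Other large subunit proteins were named for their roles. Rpl5 and Rpl11 carry the 5S rRNA and, when free, inhibit the p53 ligase Mdm2. Rpl5 had levels of 8.27 and 8.76 against 8.78 and 8.81, a difference of -0.28 ± 0.28 (SE), and Rpl11 had 8.55 and 8.16 against 8.35 and 8.52, a difference of -0.08 ± 0.27. Their IEL arrays were ordered in opposite ways, and a second Rpl5 probe gave -0.81 ± 0.41. Rpl22, which αβ T cells need for their development in the thymus, had levels of 7.15 and 7.13 against 7.27 and 7.47. Its IEL arrays agreed within 0.03, both lay below the SPLs, and the difference was -0.23 ± 0.23 (SE), where a second Rpl22 probe gave -0.61 ± 0.34. Rpl13a, often used as a reference gene, had levels of 8.57 and 8.51 against 8.53 and 8.63, with a difference of -0.04 ± 0.23. Rpl3 reaches towards the peptidyl transferase centre. Its levels were 7.31 and 7.11 against 7.55 and 7.94, with no overlap and a difference of -0.53 ± 0.27 (SE).

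Among the small subunit proteins, Rps19, which is mutated in Diamond-Blackfan anaemia, had levels of 8.10 and 8.13 against 8.60 and 8.78. Its IEL arrays lay within 0.03 of each other, the difference was -0.58 ± 0.23 (SE), and a second tested Rps19 probe gave -0.83. Rps6, the S6 kinase substrate, had levels of 6.86 and 6.98 against 7.05 and 7.46, with no overlap and a difference of -0.34 ± 0.27 (SE). Another, dim Rps6 probe gave -0.996 ± 0.47. Rps4x had levels of 8.45 and 8.07 against 8.20 and 8.30, and Rps27a, made as a fusion to ubiquitin, had 7.94 and 7.26 against 7.48 and 7.74. The differences of these last members were 0.01 and -0.01, and their groups overlapped.

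The P stalk recruits the GTPases of translation to the ribosome. Its members Rplp0, Rplp1 and Rplp2 had differences of 0.40, 0.26 and 0.14, all above 0 at the reported scaling and all below 0 with the spike-ins. The latter pair also lay below 0 in the authors' values. Other Rplp0 probes gave -0.47 and -0.62 at the reported scaling, so for Rplp0 the value above 0 is that of its brightest probe only. Rplp1 had levels of 9.85 and 9.04 against 9.25 and 9.12, and Rplp2 had 9.43 and 9.07 against 9.13 and 9.11. In each, IEL replicate 1 was the highest array and IEL replicate 2 the lowest. Within slide 2 the differences were -0.21 for Rplp1, -0.06 for Rplp2 and -0.0008 for Rplp0.

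Of the variant genes, Rpl3l, Rpl39l and Rps27l were on the array. Rpl3l, a copy of Rpl3 used in heart and skeletal muscle, was dim: its signals were 6.78 and 10.8 in IELs and 8.98 and 20.1 in SPLs, and it was well above background on 1 of 2 IEL arrays. It was the only member not well above background on all 4 arrays. Rpl39l, a copy of Rpl39 known from testis, had signals of 73.7 and 109 in IELs and 159 and 196 in SPLs. On the log2 scale its levels were -2.08 and -1.99 against -1.59 and -1.63, so the IEL arrays agreed within 0.1 and lay below the SPLs. The difference of -0.43 ± 0.23 (SE) had an adjusted p of 0.634 by limma. Its parent Rpl39 had levels of 8.26 and 7.81 against 8.11 and 8.31, which overlapped. Rps27l, a p53 target and copy of Rps27, had levels of 3.19 and 3.43 against 3.55 and 3.59, a difference of -0.27 ± 0.24 (SE), where Rps27 gave 0.30. Rpl10, the parent of a variant that no probe of the array names, had levels of 7.82 and 8.04 against 8.21 and 8.24, a difference of -0.29 ± 0.24 (SE).

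Many members were measured by several probes, which gave separate readings of the same gene. Of the 42 members with more than 1 tested probe, 31 had probes of the same sign within 1 log2 unit, and 11 had probes that differed in sign or by more. The probe with the highest signal gave the highest difference in 29 of the 42 genes and the lowest in 12. The median difference was -0.17 over those brightest probes and -0.39 over the other 53 probes. Members whose probes disagreed included Rplp0, Rpl7a, Rpl11, Rpl21, Rps2, Rps3, Rps4x, Rps12, Rps18 and Rps20. Rps2 gave 0.15 on its brightest probe and -0.40 on another, Rps3 gave 0.14 and -0.37, and Rps20 gave 0.13 and -0.56. Rps18 had 3 tested probes, which gave 0.01, -0.08 and -0.24, each with overlapping groups.

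The probes of Rplp0 and Rpl7a show what was hybridised. Rplp0 had 3 probes of 60 bases, and the part shown of the first, at chr5:116013455-116013514 (mm9, + strand), is its last 30 bases, with the polyadenylation signal AATAAA in capitals. The second lies at chr5:116011423-116011482 (mm9, + strand), and the third, taken from accession U89419, has no position in the file.
Rplp0, brightest probe: atttgagaaagatggaAATAAAggcttact
Rplp0, second probe: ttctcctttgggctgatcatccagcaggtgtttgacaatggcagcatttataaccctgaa
Rplp0, probe with no position: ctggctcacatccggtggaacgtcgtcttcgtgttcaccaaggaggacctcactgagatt
The brightest probe gave 0.40, the second -0.47 and the third -0.62. The second had levels of 7.77 and 8.23 against 8.46 and 8.47, and the third 5.73 and 6.31 against 6.56 and 6.72, so both lay lower on each IEL array than on either SPL array. The third probe was spotted 10 times on each array, and the coefficient of variation of its repeat spots was between 1.64% and 4.99%. The other Rplp0 probes had 1 spot each, so their spot-to-spot error was not measured.

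Rpl7a, a large subunit protein, had a pair of probes that overlap by 14 bases, shown in capitals. The first lies at chr2:26768694-26768753 (mm9, + strand) and the second at chr2:26768740-26768798, where 59 bases are annotated for a probe of 60.
Rpl7a, brightest probe: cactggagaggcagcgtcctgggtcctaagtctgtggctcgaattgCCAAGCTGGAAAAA
Rpl7a, overlapping probe: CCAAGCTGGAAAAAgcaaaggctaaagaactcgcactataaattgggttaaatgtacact
The brightest probe had levels of 9.45 and 9.25 against 9.05 and 9.19, a difference of 0.23 ± 0.24 (SE). The overlapping probe had levels of 5.33 and 3.06 against 4.28 and 5.46, a difference of -0.67 ± 0.89. Its IEL arrays were 2.27 log2 units apart, where those of the first probe were 0.20 apart. Another Rpl7a probe, upstream of these, gave -0.50 ± 0.31 (SE).

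**Figure D3:**
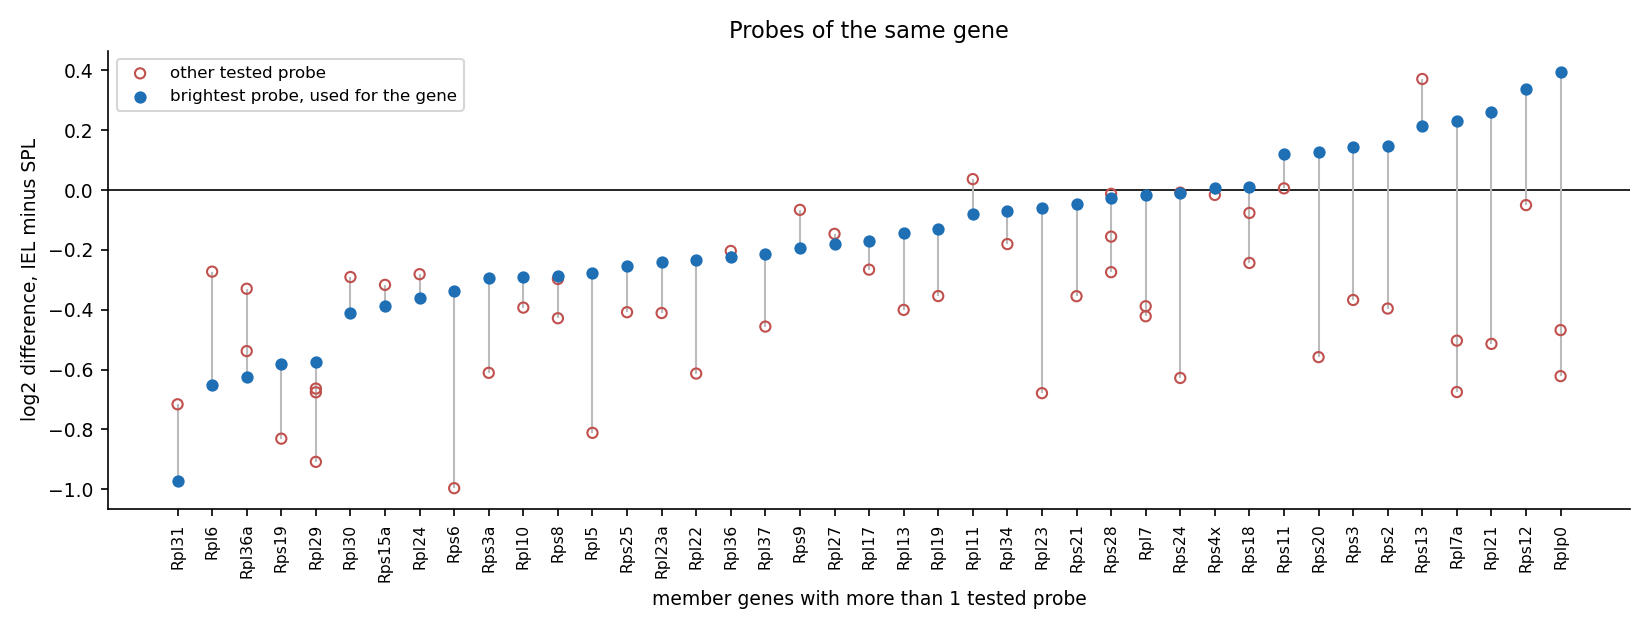
Log2 difference, IEL minus SPL, of every tested probe of 41 of the 42 members with more than 1 tested probe, with the brightest probe filled and the others open, and genes in order of the brightest probe. Open circles lie below the filled one in most genes, and Rplp0 has the widest range at 1.02.

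The members' differences were also set against the signal of the probe, which depends on the probe as well as on the mRNA. Split into 3 groups by signal, the 26 dimmest had a median difference of -0.45, the middle 27 of -0.17 and the brightest 26 of 0.14. Of the brightest, 17 lay above 0, and of the dimmest 1 did. Spearman's rho between signal and difference was 0.72 over the 79 members and -0.01 over all tested probes, as a description of points that share the same arrays and scaling. Within slide 1 rho was 0.71 and within slide 2 it was 0.51. Other tested probes in the signal range of the dimmest members numbered 26336, with a median of 0.01. That range reached down to the signal of Rpl3l and so took in most tested probes. These 26336 probes were therefore not matched in signal to the dimmest members as a set, and their median is no like-for-like comparison. Other tested probes in the ranges of the middle and brightest members numbered 23 and 20, with medians of -0.15 and -0.04. No spot on any array was saturated. The part that signal plays in the differences was not tested.

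**Figure D4:**
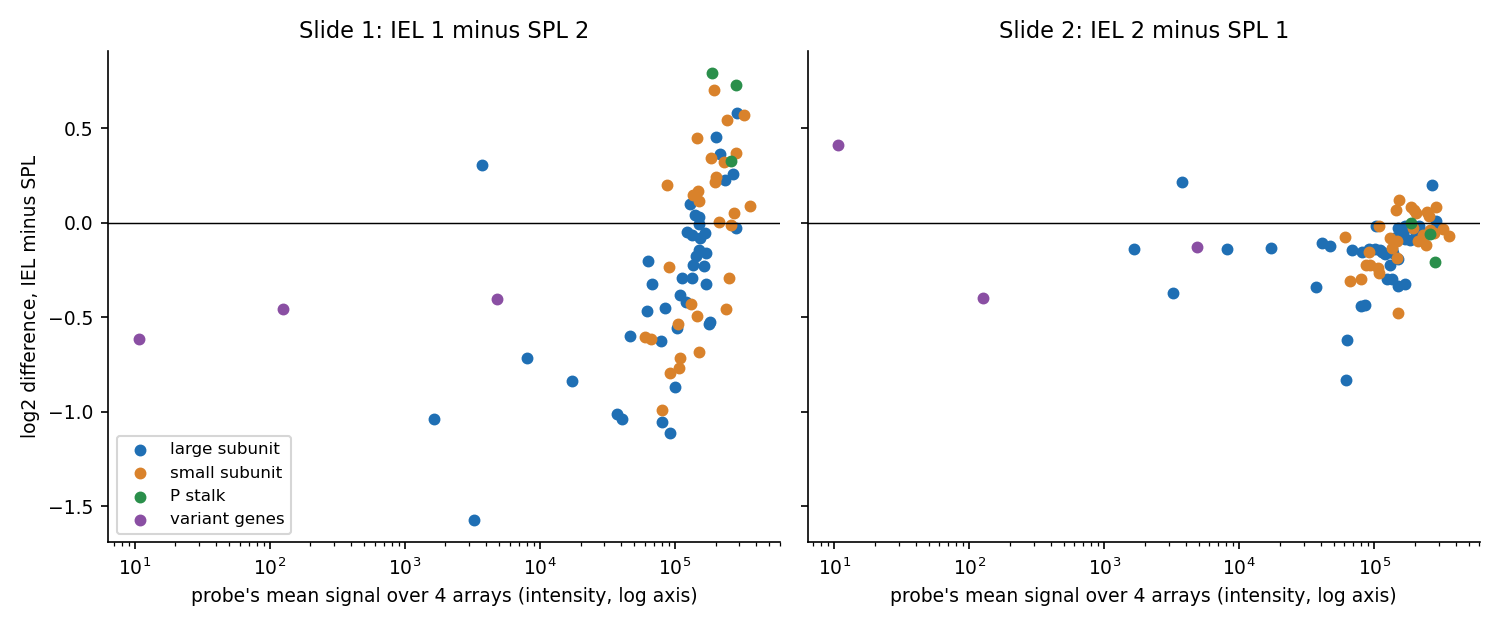
Log2 difference within slide 1 (left) and slide 2 (right) of the 79 members against the mean signal of their probe over the 4 arrays, on a log axis, coloured by subunit. On slide 1 the brightest 26 members have a median of 0.25 and the dimmest 26 one of -0.61, and on slide 2 the medians are -0.03 and -0.15.

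Ribosomal protein genes that the naming rule leaves out gave values in the same range. Of the 7 on the array, 4 lay above 0 at the reported scaling, 0 with the spike-ins and 7 after normexp, with a median of 0.01. With 1 array left out the median was -0.08 without IEL replicate 1, 0.13 without IEL replicate 2, 0.0065 without SPL replicate 1 and 0.15 without SPL replicate 2. Fau, which encodes the small subunit protein eS30 fused to a ubiquitin-like domain, gave 0.33, and Gnb2l1, the scaffold RACK1, 0.16. Rpsa, a small subunit protein also called the laminin receptor, gave -0.48. None passed the test.

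The 76 genes of the mitochondrial ribosome, which translates the mRNAs of mitochondrial DNA, had a median difference of -0.23, with 62 below 0 at the reported scaling and 27 after normexp. Both IEL arrays lay below both SPL arrays for 37 of them and above for 5, beside 24.5% and 24.4% of all probes. Mrps28, Mrpl22 and Mrpl36 gave the lowest values, -0.69, -0.57 and -0.56, and Mrps6 and Mrpl9 the highest, 0.62 and 0.55. The 16 translation factors and other genes whose mRNAs carry a tract like that of the ribosomal proteins had a median of -0.26, with 13 below 0 at the reported scaling and 4 after normexp. Nap1l1, a histone chaperone, gave -0.76, and the elongation factor subunits Eef1g and Eef1b2 gave -0.64 and -0.50. Pabpc1, the poly(A)-binding protein, gave 0.31. In neither list did a gene pass the test, and at an unadjusted p under 0.05 the count was also 0 in each.

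Ribosome biogenesis genes had the lowest median of the translation lists. Of 40 nucleolar factors, RNA polymerase I subunits and regulators, 36 lay below 0 at the reported scaling and 23 after normexp, the median was -0.43, 0 passed the test and 1 had an unadjusted p under 0.05. On slide 1, 12 of the 40 were at least 2-fold lower in IELs, beside 13.7% of all probes, and on slide 2 none was. Myc, the transcription factor that drives ribosome production, had a difference of -1.24 ± 0.72 (SE), the pseudouridine synthase Dkc1 -1.18 ± 0.48 and the rRNA methyltransferase Nop2 -1.01 ± 0.50. Their slide 2 differences were -0.29, -0.53 and -0.27. Nop56, a core protein of small nucleolar ribonucleoproteins, gave the highest value, 0.38. Without IEL replicate 2, 7 of the 40 passed as lower, where 10.3% of all probes did. Without IEL replicate 1 the medians were -0.17 for the cytosolic ribosomal proteins, -0.13 for the mitochondrial ones and -0.26 for the biogenesis genes, with no call.

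The members' median lay below 0 under every scaling run and above 0 after normexp background correction fitted on all spots. It was -0.19 with quantile normalization, -0.23 with the array median, -0.67 with the E1A spike-ins and -0.29 in the authors' processed values. After normexp background correction it was 0.27, and when normexp was fitted without spots far below their local background it was -0.25. The median of all tested probes moved too, to -0.50 with the spike-ins, -0.38 with normexp and 0.15 with the refitted normexp. Relative to it, the members stood at -0.18 at the reported scaling, -0.18 with the spike-ins, -0.24 in the authors' values, -0.41 with the refitted normexp and 0.65 with normexp. None of these settings called a member.

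**Figure D5:**
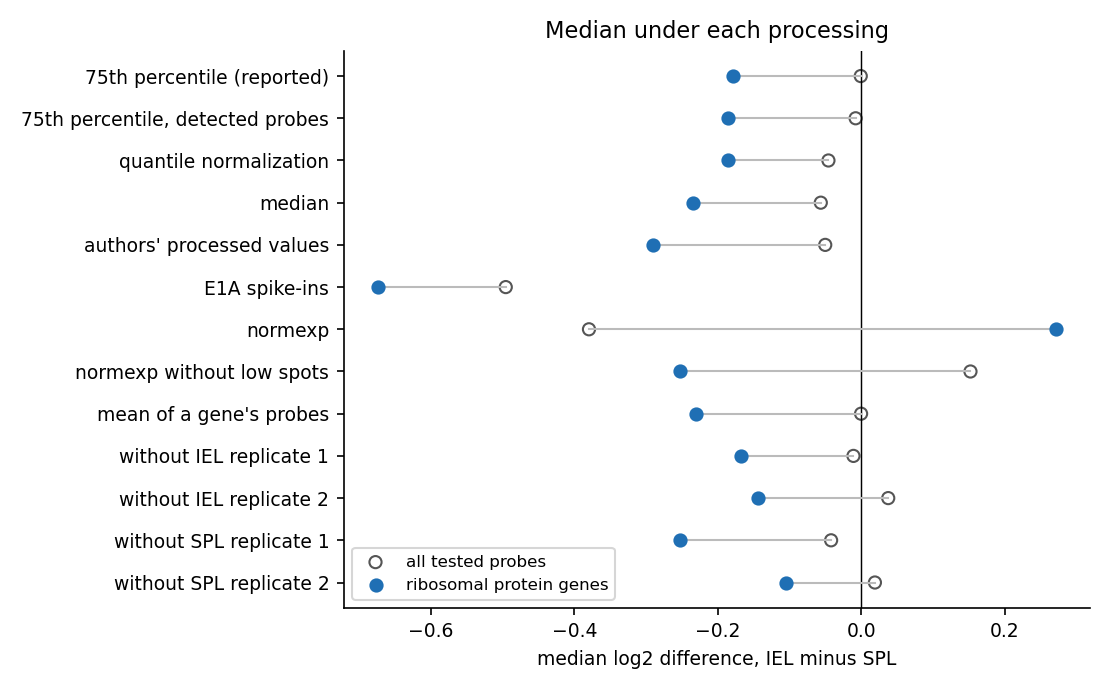
Median log2 difference, IEL minus SPL, of the ribosomal protein genes (filled) and of all tested probes (open) under each processing, with a grey line joining the pair. The members' median lies below that of all probes in every row but normexp, where it is 0.27 against -0.38.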

How the data were processed

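Sorted CD8αβ+ IELs and CD8αβ+ SPLs were each hybridised to 2 one-colour arrays. The deposited scanner files hold Cy3 spot intensity as Agilent Feature Extraction writes it (version 10.7.3.1 per the file headers, 10.7.1.1 per the labels), background-subtracted. The study's methods name another chip, so the platform was taken from the files. The authors' deposited value table holds log2 values with a nearly equal median on each array (5.57 to 5.59), whose normalization is not given in the sources used here. Its minimum and maximum were the same on every array (0.53 and 18.84), as quantile normalization would leave them. It was used as an alternative that may not be separate from quantile normalization.

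Control and outlier-flagged spots were left out, the log2 processed signal minus the 75th percentile of each array's 43379 non-control spots was taken, and 41174 probes resulted once repeat spots were averaged. The 27936 probes that either group measured well above background on both its arrays were tested, with limma 3.58.1 in R 4.3.3 (lmFit, eBayes, two-sided, no block) and Benjamini-Hochberg adjustment over all of them at 0.05. Between 63.6% and 69.6% of probes were well above background on an array. Precision is limited by how few arrays there are. Each sample was sorted from several mice per the study, so p-values measure the spread between pooled samples and not between mice.

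Genes named were chosen by role, as the 6 highest and 6 lowest differences, where probes disagreed, or where dim. Members named only from a count of 2-fold differences or of the methods' test were chosen after their values were seen. Other lists were named by their 3 highest and 3 lowest genes, in part. Members and lists were chosen with earlier results of these data known. Alternatives were another scaling (quantile, median, detected probes, 8 E1A spike-ins), normexp (offset 50, also without spots over 20 units below local background), the filter, flagged spots, a variance trend, slide or replicate as a block, the methods' t-test and leaving out each array. Probe positions are those of the files (mm9), which give no exon or UTR, and 40 of the 135 member probes span more than their 60 bases there. Near-identical copies of ribosomal protein genes are common in the genome, so probe signals may include them. Some genes are not reported here.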

Additional observations from a re-analysis of the deposited data

How the results depend on the processing

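The count of 0 called members held under all alternatives run, except that 2 were lower without IEL replicate 2 (leaving out 1 array gave 0 to 2 lower and 0 higher) and 3 were lower by the methods' t-test before adjustment (Rps19, Rpl39l and Rpl36, with 0 after it). In that t-test before adjustment, 349 of 27911 probes were lower and 470 higher, and 0 members were higher. The members' median was -0.67 with spike-in scaling, 0.27 with normexp, which reversed it, and -0.29 in the authors' values, and -0.25 to -0.10 with 1 array left out. Members higher on both IEL arrays numbered 8 as reported, 0 with median scaling, 0 with the spike-ins, 21 with normexp, 4 in the authors' values, 5 when a gene's probes were averaged and 9 to 26 with 1 array left out. Members lower on both numbered 40 as reported, 67 with the spike-ins, 1 with normexp and 42 to 61 with 1 array left out. The share of all tested probes under these alternatives is not given here, and with 1 array left out the groups separate more easily. No member was 2-fold apart on both slides under any setting run.

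The replicate numbers are shared but the deviations of same-numbered arrays correlated at -0.02 over tested probes, so they were not used as pairs. With the replicate number as a block, 0 members were called and the median was -0.18, and with the slide as a block likewise. The median scaled member values of the arrays varied by 0.08 (SD) within a group.

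Of 34 named members, differences turned sign as follows, with no cause tested. With normexp they were 0.18 for Rpl10, 0.42 for Rpl11, 0.43 for Rpl13a, 0.27 for Rpl22, 0.27 for Rpl39, 0.19 for Rpl5, 0.41 for Rps27a, 0.21 for Rps27l and 0.10 for Rps6. With the spike-ins they were -0.23 for Rpl21, -0.20 for Rpl37a, -0.26 for Rpl7a, -0.10 for Rplp0, -0.23 for Rplp1, -0.36 for Rplp2, -0.16 for Rps12, -0.48 for Rps18, -0.35 for Rps2, -0.37 for Rps20, -0.23 for Rps23, -0.19 for Rps27, -0.35 for Rps3 and -0.49 for Rps4x. With a gene's probes averaged they were -0.13 for Rpl21, -0.32 for Rpl7a, -0.23 for Rplp0, -0.10 for Rps18, -0.12 for Rps2, -0.21 for Rps20, -0.11 for Rps3 and -0.0036 for Rps4x. In the authors' values they were -0.0672 for Rplp1, -0.0096 for Rplp2, -0.45 for Rps18, -0.0507 for Rps20, -0.18 for Rps23 and -0.10 for Rps4x. With the refitted normexp they were 0.35 for Rpl3l, -0.25 for Rps18 and -0.10 for Rps4x, with quantile normalization -0.27 for Rps18, -0.0021 for Rps20 and 0.10 for Rps27a, and with median scaling -0.0453 for Rps18 and -0.0470 for Rps4x.

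With 1 array left out, differences ranged from -0.28 to 0.11 for Rpl11, -0.0860 to 0.0149 for Rpl13a, -0.0888 to 0.61 for Rpl21, -0.40 to 0.0511 for Rpl39, -0.52 to 0.31 for Rpl3l, -0.15 to 0.67 for Rplp1, -0.0457 to 0.32 for Rplp2, -0.0068 to 0.68 for Rps12, -0.0676 to 0.0887 for Rps18, -0.0666 to 0.32 for Rps20, -0.35 to 0.33 for Rps27a and -0.18 to 0.20 for Rps4x. The other named members kept their sign in these fits.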
